A study of Mus musculus with 8 samples.

Results

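The genes described here are the potassium channel genes of the neonatal mouse heart, taken as every protein-coding row of the deposited expression table whose gene symbol starts with Kcn. They number 94 of 22046 protein-coding genes and fall into 21 subfamilies by the letters that follow Kcn. Expression was measured by RNA-seq of poly-A RNA from whole hearts of littermate mice on postnatal day 4, in 8 libraries. The 4 control libraries came from Mrps5 fl/+ mice, which have 1 floxed Mrps5 allele but lack Cre. The 4 cHET libraries came from Mrps5 fl/+; Myh6-Cre mice, in which Cre driven by the promoter of the cardiomyocyte gene Myh6 deletes that allele. The sample labels give no time of deletion. The product of Mrps5 is part of the mitochondrial ribosome, in its small subunit. Both groups carry the floxed allele, other cell types of the heart are outside the reach of this promoter, and no group with Cre alone is among the samples, so an effect of Cre itself cannot be told apart from that of the lost allele. Per the series' design text, the replicates are biological. Values are FPKM, which are reads divided by gene length and library total, and can be compared between genes because they are given per length.

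Potassium channels set the resting potential of heart muscle cells and return them to it after each beat. Voltage-gated channels (Kcna to Kcnd, Kcnq and Kcnh) open during the action potential, inward rectifiers (Kcnj) hold the resting potential, and two-pore channels (Kcnk) carry leak currents. Many pore subunits work with accessory subunits (Kcne, Kcnip and Kcnab), and some, such as those of the Kcng, Kcnf, Kcns and Kcnv subfamilies, form no channel alone and modify Kcnb channels. The neonatal heart is still changing its set of channels towards that of the adult.

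The libraries differed beyond their group labels. Depth was 15490622 to 19234777 reads assigned to genes. The cardiomyocyte markers were high in every library, with a summed level of 9998 to 13206 FPKM over 8 genes. The summed level of 10 atrial markers was 263 FPKM in the library labelled cHET 3 and 1528 FPKM in control 4, against 3516 to 5424 FPKM in the other libraries. Ucp1, which defines brown fat, stood at 17.8 and 16.7 FPKM in control 1 and 2 and at 6.56 FPKM in cHET 2, against 0 to 1.62 FPKM elsewhere. The summed level of 7 red cell genes was 8418 FPKM in control 2, against 1024 to 2758 FPKM in the other libraries. Its part in the values of control 2 given below was not tested. The summed level of 10 mitosis genes was 115 to 172 FPKM in control and 189 to 279 FPKM in cHET, without overlap. The targeted gene, Mrps5, stood at 11.6, 6.27, 10.1 and 5.15 FPKM in the libraries labelled control 1 to 4 and at 6.84, 7.12, 7.0 and 7.68 FPKM in those labelled cHET 1 to 4 (limma, log2 fold change -0.13, adjusted p = 0.849), so the libraries labelled control 2 and 4 lay below every cHET library and this gene checks the labels only in part. In bulk tissue, a change in the number of cells of a type and a change in RNA per cell cannot be told apart.

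Upstream sequence is shown for 3 genes, in RefSeq's table for build GRCm38.p6, as the 250 bases before the annotated start, 5′ to 3′ on the gene's strand. Kcnip2 and Kcnj4 are shown because they are among the 5 genes with an unadjusted p under 0.05, and Kcnj2, the most abundant classical inward rectifier, because it belongs to the same subfamily as Kcnj4 and differed little between groups. Capitals mark each CG dinucleotide, which reads the same on both strands.
Kcnip2: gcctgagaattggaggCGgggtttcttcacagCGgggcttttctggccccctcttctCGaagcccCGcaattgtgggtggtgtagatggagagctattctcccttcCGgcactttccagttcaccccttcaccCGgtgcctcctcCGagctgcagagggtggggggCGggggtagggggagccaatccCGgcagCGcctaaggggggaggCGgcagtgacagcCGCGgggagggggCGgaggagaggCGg
Kcnj4: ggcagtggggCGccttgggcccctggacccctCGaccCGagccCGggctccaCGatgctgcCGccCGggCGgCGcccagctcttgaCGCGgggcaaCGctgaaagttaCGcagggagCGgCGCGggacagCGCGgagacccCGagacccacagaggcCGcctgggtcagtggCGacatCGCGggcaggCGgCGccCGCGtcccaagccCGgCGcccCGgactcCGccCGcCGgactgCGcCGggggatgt
Kcnj2: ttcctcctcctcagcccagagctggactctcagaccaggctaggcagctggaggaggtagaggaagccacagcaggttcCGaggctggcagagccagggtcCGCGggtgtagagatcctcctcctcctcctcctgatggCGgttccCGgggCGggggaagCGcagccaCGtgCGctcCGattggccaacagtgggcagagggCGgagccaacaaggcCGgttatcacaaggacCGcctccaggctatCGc
The Kcnip2 window (chr19:45816064-45816313, minus strand) held 15 CG dinucleotides, and 27.5% of the 27025 windows of the same length in the table held at least as many. The Kcnj4 window (chr15:79505242-79505491, minus strand) held 35, a number reached by 2.77% of all windows. The Kcnj2 window (chr11:111065914-111066163, plus strand) held 14, reached by 29.5%. The median over all windows was 6, so all 3 windows were above it, and Kcnj4 lay far above the other two. The table had a window for 68 of the 94 genes and for 13 of the 24 genes tested between groups, too few to compare promoters between sets of genes.

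Expression of the family was concentrated in few genes. Of the 94 genes, 24 (25.5%) had a mean of at least 1 FPKM over the 8 libraries and were tested, against 51.4% of all protein-coding genes. A further 31 had a mean from 0.1 to under 1 FPKM, 34 a mean above 0 and under 0.1 FPKM, and 5 were listed at 0 in every library. The 5 most abundant genes, Kcne1, Kcng2, Kcnh2, Kcnip2 and Kcnk3, made up 64.4% of the summed mean of the family. Only 1 of these 5, Kcnh2, encodes a voltage-gated pore subunit that forms channels by itself; Kcne1, Kcng2 and Kcnip2 are accessory or modifying subunits, and Kcnk3 is a two-pore leak channel. The summed level of all 94 genes was 327 to 395 FPKM per library, lowest in control 2 and highest in cHET 3. As a share of all FPKM it ran from 0.0699% in control 2 to 0.106% in control 4. No gene of 10 subfamilies (Kcnc, Kcnd, Kcnf, Kcnma, Kcnmb, Kcnrg, Kcns, Kcnt, Kcnu and Kcnv) reached the mean of 1 FPKM.

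**Figure D1:**
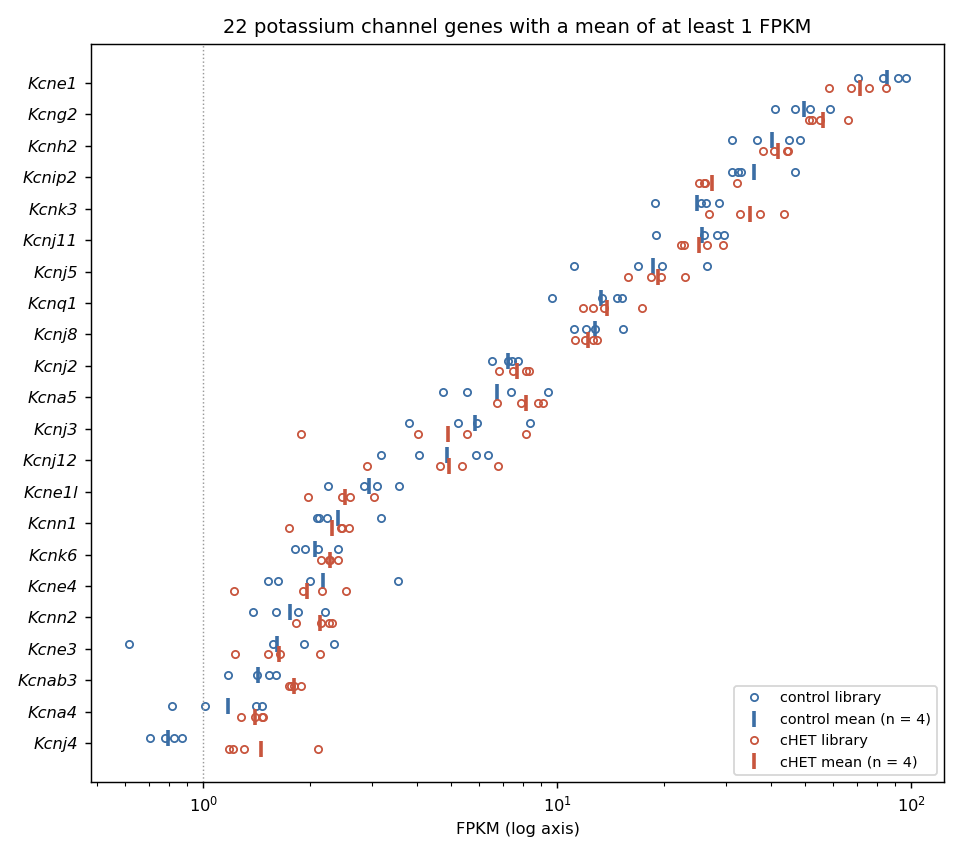
FPKM on a log axis of 22 potassium channel genes with a mean of at least 1 FPKM, ordered by mean, with 1 open circle per library and a vertical bar for each group's mean (n = 4). The dotted line marks 1 FPKM. Kcne1 is highest with group means of 85.4 and 71.7 FPKM, and the circles of the 2 groups overlap for 20 of the 22 genes shown, all but Kcnab3 and Kcnj4.

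The comparison of cHET with control asks whether the hearts with 1 deleted Mrps5 allele in cardiomyocytes express these genes at other levels. None of the 24 tested genes passed the test (limma on log2(FPKM + 1), adjusted p under 0.05), beside 0.023% of all 13029 genes tested. Adjusted p over the 24 genes ran from 0.404 to 0.993. At an unadjusted p under 0.05, limma gave 5 of the 24 genes (20.8%), beside 8.95% of all genes tested. Limma voom on reads rebuilt from the FPKM gave 4 genes at that level, beside 8.93% of all genes in that fit, with 0 past its adjusted p. The count of 5 became 3 without control 1, without cHET 1 or without cHET 2, 2 without cHET 4, and 3 without both control 1 and 2. It became 4 without cHET 3 and 6 without control 2 or without control 3, and stayed at 5 without control 4. The shares of all genes at that level in these fits were not counted. Of the 5 genes, those described here are Kcnk3, Kcnj4 and Kcnab3, with a higher mean in cHET, and Kcnip2, with a lower one. The groups did not overlap for 3 of the 24 genes (12.5%), Kcnj4 and Kcnab3 among them, beside 4.74% of all genes tested. Kcnj4 is in both counts and reached the mean of 1 FPKM only through cHET, with group means of 0.793 (control) and 1.45 FPKM (cHET). Both shares therefore depend in part on its difference. The log2 fold change lay above 0 for 14 genes and below 0 for 10, with a median of 0.056, beside 0.0086 over all genes tested. With values rescaled to TPM the median over all genes moved to 0.10, that of the 24 genes to 0.17, and 17 lay above 0 and 7 below. The median fell below 0 in other alternatives, at -0.021 with library weights (12 above 0 and 12 below), -0.039 without control 2 (12 above and 13 below of 25 tested), -0.023 without control 1 and 2 (11 above and 14 below) and -0.016 with the filter at 0.1 FPKM (24 above and 31 below). For 13 of the 24 genes, the 95% interval of the log2 fold change lay within 0.5 of 0.

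**Figure D2:**
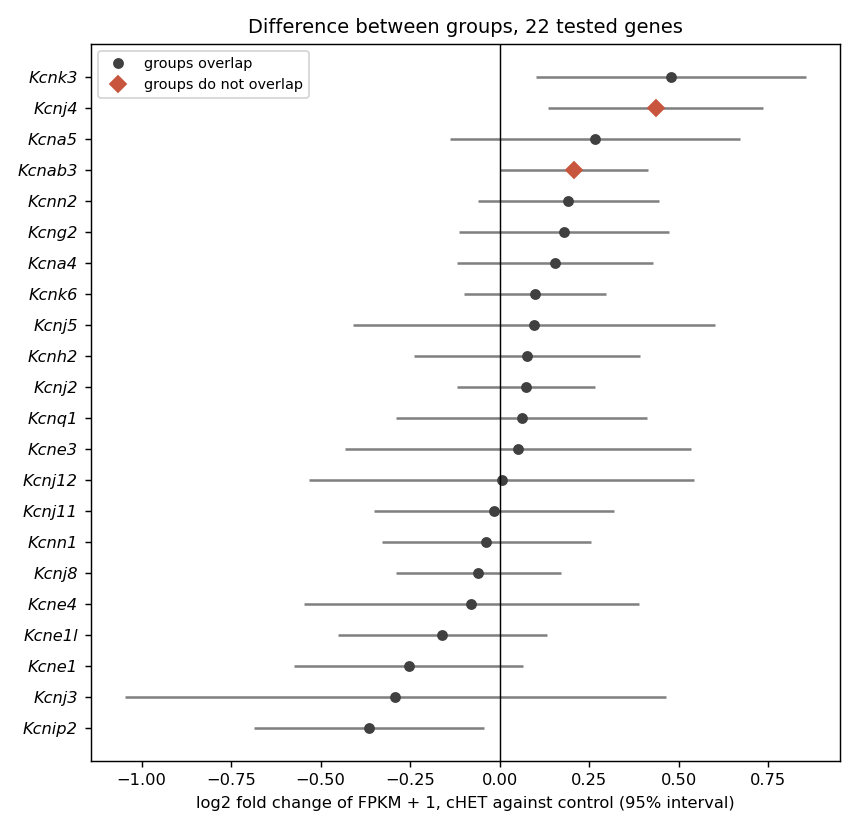
Log2 fold change of FPKM + 1, cHET against control, of 22 tested genes (points) with its 95% confidence interval (lines), ordered by size. Red diamonds mark Kcnj4 and Kcnab3, whose groups do not overlap. The values run from -0.37 for Kcnip2 to 0.48 for Kcnk3, and the intervals of 18 of the genes shown include 0.

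Kcnk3 (ENSMUSG00000049265, chr5:30588170-30625271), a two-pore channel sensitive to acid that carries a leak current in atrial muscle and other tissues, stood at 25.5, 18.8, 28.6 and 26.2 FPKM in control 1 to 4 and 26.8, 37.2, 32.7 and 43.6 FPKM in cHET 1 to 4. In cHET 2, 3 and 4 it lay above each control value, and cHET 1 lay within the control range. Its means were 24.8 ± 4.17 for control and 35.1 ± 7.09 FPKM for cHET (SD, n = 4), a log2 fold change of 0.48 (SE 0.168; limma, unadjusted p = 0.0182, adjusted p = 0.479). The difference was 0.33 without control 1 and 2, the libraries highest in Ucp1, at an unadjusted limma p of 0.103, an alternative chosen after seeing the data. Kcnk3 is also expressed in brown fat, whose defining markers Ucp1, Adipoq and Plin1 were highest in control 1 and 2, where Kcnk3 was 25.5 and 18.8 FPKM. In cHET 3, where Ucp1 and Adipoq were at 0, Kcnk3 was at 32.7 FPKM. In cHET 2, where Ucp1 was at 6.56 and Adipoq at 2.14 FPKM, Kcnk3 was at 37.2 FPKM. Its highest value, 43.6 FPKM, was in cHET 4, where Ucp1 was at 1.62 FPKM. The summed level of 10 brown fat markers, led by Cox8b and Cox7a1, which heart muscle also expresses, was 1507 to 2489 FPKM in control and 1425 to 1674 FPKM in cHET. The part of brown fat in the Kcnk3 values was not tested.

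Kcnip2 (ENSMUSG00000025221, chr19:45791839-45816061), the potassium channel interacting protein that brings Kcnd channels to the membrane and sets the size of the fast transient outward current, stood at 47, 31.2, 32.9 and 32.3 FPKM in control 1 to 4 and 26.1, 26, 32.1 and 25.1 FPKM in cHET 1 to 4. In cHET 1, 2 and 4 it lay below each control value, while cHET 3 lay inside the control range, and control 1 was far above the other 3 controls. The means were 35.9 ± 7.47 for control and 27.3 ± 3.23 FPKM for cHET (SD, n = 4), a log2 fold change of -0.37 (SE 0.142; limma, unadjusted p = 0.0296, adjusted p = 0.517). Without control 1 it was -0.23 at an unadjusted limma p of 0.0575, so the size of the difference moved by over 1.5 times with this library.

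Kcnj4 (ENSMUSG00000044216, chr15:79483714-79505241), an inward rectifier of the same group as Kcnj2, stood at 0.868, 0.777, 0.707 and 0.823 FPKM in control 1 to 4 and 1.3, 1.21, 2.11 and 1.18 FPKM in cHET 1 to 4. All 4 cHET libraries lay above all controls, and cHET 3 was highest by a wide margin. The means were 0.793 ± 0.0687 for control and 1.45 ± 0.444 FPKM for cHET (SD, n = 4), a log2 fold change of 0.44 (SE 0.133; limma, unadjusted p = 0.00922, adjusted p = 0.422), on 24 to 73 reads per library. Kcnj4 reached the mean of 1 FPKM only through the cHET group, so its place among the tested genes is not independent of its difference. With the filter at a mean of 0.5 FPKM, which both groups exceed, its log2 fold change was 0.44 (limma, unadjusted p = 0.00768, adjusted p = 0.42). Without cHET 3 its mean was under the filter and it was not tested, and the other 3 cHET libraries stood at 1.18 to 1.30 FPKM, above the control range of 0.707 to 0.868 FPKM.

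Kcnab3 (ENSMUSG00000018470, chr11:69326258-69333042), a beta subunit that binds Kcna channels in the cell, stood at 1.53, 1.6, 1.42 and 1.17 FPKM in control 1 to 4 and 1.8, 1.77, 1.74 and 1.89 FPKM in cHET 1 to 4. The groups did not overlap, and the 4 cHET libraries were close together. The means were 1.43 ± 0.187 for control and 1.8 ± 0.0651 FPKM for cHET (SD, n = 4), a log2 fold change of 0.21 (SE 0.0916; limma, unadjusted p = 0.049, adjusted p = 0.556). Its gene overlaps the antisense gene Kcnab3os, which was at 0 to 0.219 FPKM, and whether counting used strand is not given in the sources used here. Without control 4, the lowest library, the log2 fold change was 0.15 at an unadjusted limma p of 0.132. The mitosis genes given at the start separated the groups in the same way as Kcnj4 and Kcnab3 did, and their part in these results was not tested.

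**Figure D3:**
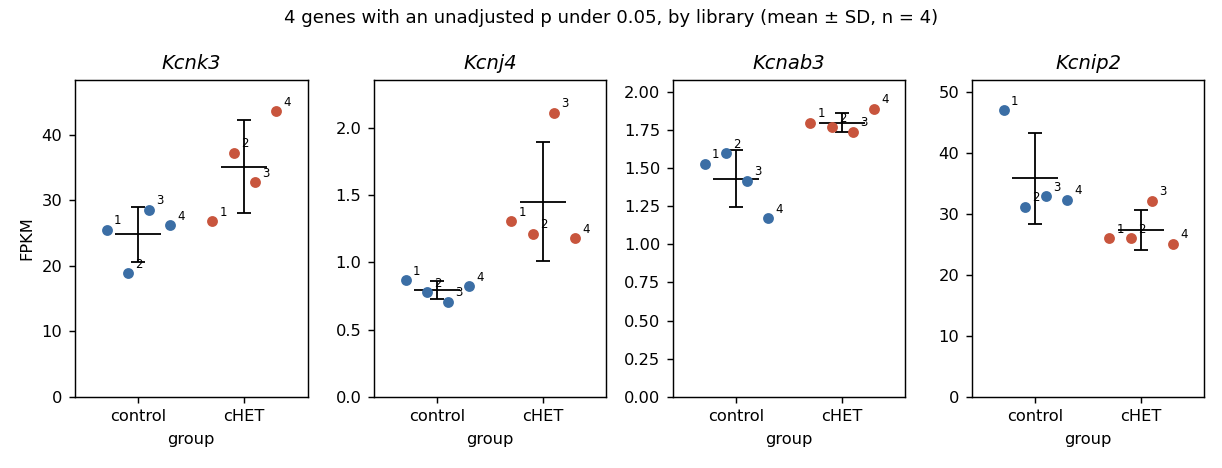
FPKM by library of 4 genes with an unadjusted limma p under 0.05, with replicate numbers beside the points and the mean ± SD of each group (n = 4) as a horizontal bar and error bar. Kcnj4 and Kcnab3 lie above the control range in all 4 cHET libraries, while 1 cHET library of Kcnk3 (26.8 FPKM) and 1 of Kcnip2 (32.1 FPKM) fall inside it.

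The pore subunits of the transient outward current were scarce next to their accessory subunit. Kcnd2, a pore subunit of the fast component, stood at 0.325, 0.613, 0.59 and 0.616 FPKM in control 1 to 4 and 0.488, 0.711, 0.701 and 0.604 FPKM in cHET 1 to 4, and control 1 was the lowest library. Kcnd3, the other main pore subunit in heart, stood at 0.275, 0.207, 0.0992 and 0.261 FPKM in control 1 to 4 and 0.11, 0.115, 0.169 and 0.138 FPKM in cHET 1 to 4. Kcnd1, a further member of that subfamily, stood at 0.621, 0.574, 0.24 and 0.427 FPKM in control 1 to 4 and 0.454, 0.446, 0.259 and 0.294 FPKM in cHET 1 to 4. None of the 3 reached the filter, and their ranges overlapped between groups. Kcnip2 exceeded Kcnd2 in every library, by 36.6 to 145 times in FPKM with a median of 51.6. The 3 other Kcnip genes had means of 0.0274 to 0.531 FPKM. Kcna4, the pore subunit of the slow component, stood at 0.813, 1.01, 1.4 and 1.47 FPKM in control 1 to 4 and 1.46, 1.28, 1.47 and 1.39 FPKM in cHET 1 to 4, with control 1 and 2 lowest and a log2 fold change of 0.15 (limma, adjusted p = 0.704).

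Among the pore genes of the Kcna to Kcnd subfamilies, Kcna5 was the most abundant. Kcna5, which carries an ultrarapid delayed rectifier current, stood at 5.53, 4.74, 7.37 and 9.41 FPKM in control 1 to 4 and 6.75, 8.83, 9.09 and 7.89 FPKM in cHET 1 to 4, and the 2 lowest libraries were again control 1 and 2. Its log2 fold change was 0.27 (limma, adjusted p = 0.668), and without control 1 and 2 it was -0.038. Kcng2, a silent subunit that modifies Kcnb channels, ranked behind Kcne1 alone in this family, at 46.8, 41.3, 59 and 51.7 FPKM in control 1 to 4 and 51.5, 52.3, 66.1 and 55.1 FPKM in cHET 1 to 4. Its groups differed by 0.18 on the log2 scale with a 95% interval of -0.11 to 0.47 (limma, adjusted p = 0.681). The 3 other Kcng genes were under 0.1 FPKM. The gene of Kcng2 overlaps 3 other genes of the table, the highest of which, D330025C20Rik, had a mean of 3.10 FPKM.

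The remaining voltage-gated genes and modifiers were low. Kcnab1, a beta subunit, stood at 0.405, 0.656, 0.199 and 0.277 FPKM in control 1 to 4 and 0.265, 0.228, 0.145 and 0.174 FPKM in cHET 1 to 4, highest in control 1 and 2. Kcnab2, the other beta subunit under the filter, stood at 0.312, 0.322, 0.352 and 0.339 FPKM in control 1 to 4 and 0.346, 0.549, 0.402 and 0.444 FPKM in cHET 1 to 4, highest in cHET 2. Kcns3, a modifier of Kcnb channels, stood at 0.102, 0.47, 0.10 and 0.0772 FPKM in control 1 to 4 and 0.0555, 0.0634, 0.138 and 0.182 FPKM in cHET 1 to 4, and control 2 held its high value alone. Kcnf1, another modifier, reached 0.304 FPKM in cHET 2 and was at 0 in control 1 and 2. Kcnc2, the highest of the Kcnc delayed rectifiers, stood at 0.767, 1.21, 0.781 and 0.659 FPKM in control 1 to 4 and 0.795, 0.478, 0.218 and 0.395 FPKM in cHET 1 to 4, lowest in cHET 3 and highest in control 2. With the filter at 0.1 FPKM, which both groups exceed, its log2 fold change was -0.34 (limma, unadjusted p = 0.0405, adjusted p = 0.603), beside 8.03% of 20107 genes with an unadjusted p under 0.05 there. Kcna1, Kcna2, Kcnb2, Kcnc1 and Kcnv2 had means under 0.1 FPKM, with highest values of 0.042 for Kcna1, 0.0674 for Kcna2, 0.0331 for Kcnb2, 0.0122 for Kcnc1 and 0.137 FPKM for Kcnv2. Kcna5, Kcna1 and Kcna6 are neighbours on chromosome 6 and differed widely in level, at means of 7.45, 0.0150 and 0.406 FPKM.

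The delayed rectifier genes were led by accessory subunit Kcne1. Kcne1 (ENSMUSG00000039639, chr16:92345982-92359468), which joins Kcnq1 to form the slow delayed rectifier, stood at 91.5, 96.3, 70.8 and 83.1 FPKM in control 1 to 4 and 67.3, 58.6, 84.7 and 76 FPKM in cHET 1 to 4. The 2 highest libraries were control 1 and 2 and the 2 lowest cHET 1 and 2, and the groups overlapped. The log2 fold change was -0.25 with a 95% interval of -0.57 to 0.066 (limma, adjusted p = 0.633), and it was -0.11 without control 1 and 2. Control 1 and 2 also had the highest summed level of 6 ventricular markers, 10503 and 10409 FPKM against 6461 to 8224 FPKM elsewhere. Most of that sum came from Myl2 and Myl3, at 6634 and 3390 FPKM in control 2. The markers Pln, Myh7 and Irx4 were also highest in control 1. Hey2, the remaining marker, was highest in cHET 3 at 20.0 FPKM, with 14.7 FPKM in control 1 and 12.0 FPKM in control 2. In control 2, however, Myh7 was the lowest of all libraries, at 33.1 FPKM. Irx4, at 34.8 FPKM, and Pln were below the other controls there, though Pln was above every cHET library. The part of this sum in the Kcne1 result was not tested.

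Kcnq1, the pore partner of Kcne1, stood at 13.4, 9.68, 14.8 and 15.2 FPKM in control 1 to 4 and 11.8, 13.5, 17.3 and 12.6 FPKM in cHET 1 to 4, with a log2 fold change of 0.062 (limma, adjusted p = 0.904). Kcne1 exceeded Kcnq1 by 4.33 to 9.95 times in FPKM. Kcnq1 overlaps the antisense gene Kcnq1ot1, which was at 0.155 to 0.243 FPKM. Kcnh2 (ENSMUSG00000038319, chr5:24319589-24351604), the pore subunit of the rapid delayed rectifier, stood at 36.7, 31.1, 48.4 and 45 FPKM in control 1 to 4 and 40.9, 44.5, 44.8 and 37.9 FPKM in cHET 1 to 4. For Kcnh2 the log2 fold change was 0.076 with a 95% interval of -0.24 to 0.39 (limma, adjusted p = 0.868), and the cHET libraries lay inside the control range. Kcnh2 was thus the most abundant pore-forming gene of the family in these hearts, 2.59 to 3.46 times Kcnq1 within a library.

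The other Kcne subunits were far below Kcne1. Kcne2 stood at 0.0364, 0.28, 0.215 and 0.207 FPKM in control 1 to 4 and 0.132, 0.312, 0.247 and 0.326 FPKM in cHET 1 to 4, at most 11 reads per library. Kcne2 and Kcne1 lie on chromosome 16 with 47852 bases between them, and Kcne1 exceeded Kcne2 by 188 to 2511 times in FPKM. Kcne3, which alters Kcnq1 gating, stood at 1.92, 2.33, 1.57 and 0.618 FPKM in control 1 to 4 and 1.64, 1.52, 1.23 and 2.14 FPKM in cHET 1 to 4, with both extremes in control and a log2 fold change of 0.051 (limma, adjusted p = 0.944). Kcne4, which lowers Kcnq1 current, stood at 1.62, 3.54, 2.0 and 1.52 FPKM in control 1 to 4 and 1.92, 2.53, 1.22 and 2.17 FPKM in cHET 1 to 4, highest in control 2 and lowest in cHET 3, with a log2 fold change of -0.079 (limma, adjusted p = 0.908). Kcne1l, an X-linked subunit also known as Kcne5, stood at 2.25, 3.57, 2.83 and 3.09 FPKM in control 1 to 4 and 2.46, 2.6, 3.03 and 1.98 FPKM in cHET 1 to 4, with a log2 fold change of -0.16 (limma, adjusted p = 0.711).

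The inward rectifiers of the resting potential differed in how evenly they were expressed. Kcnj2 (ENSMUSG00000041695, chr11:111066164-111076821), the main pore subunit of that current in the ventricle, stood at 7.44, 6.55, 7.75 and 7.27 FPKM in control 1 to 4 and 7.47, 8.3, 8.15 and 6.83 FPKM in cHET 1 to 4. Its libraries lay within 1.27 times of each other, and its log2 fold change was 0.073 with a 95% interval of -0.12 to 0.27 (limma, adjusted p = 0.782). Kcnj12, which assembles with Kcnj2, stood at 4.07, 3.17, 5.9 and 6.37 FPKM in control 1 to 4 and 2.89, 5.38, 6.79 and 4.65 FPKM in cHET 1 to 4 with a wide spread in both groups. Its group means differed little, at a log2 fold change of 0.0054 with a 95% interval of -0.53 to 0.54 (limma, adjusted p = 0.993). Kcnj14, a low member of this group, stood at 0.261, 0.0684, 0.676 and 0.562 FPKM in control 1 to 4 and 0.409, 0.351, 0.0688 and 0.403 FPKM in cHET 1 to 4, lowest in control 2 and cHET 3. Kcnj2 exceeded Kcnj4 by 3.86 to 11 times in FPKM. Kcnj16, the gene beside Kcnj2 on chromosome 11 with 38195 bases between them, had a mean of 0.00515 FPKM.

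The pair that forms the acetylcholine-activated channel of atrium and pacemaker cells was unequal. Kcnj3 stood at 5.22, 5.92, 8.39 and 3.82 FPKM in control 1 to 4 and 5.54, 8.15, 1.89 and 4.03 FPKM in cHET 1 to 4, lowest in cHET 3 and highest in control 3 and cHET 2. Its log2 fold change was -0.29 with a 95% interval of -1.05 to 0.47 (limma, adjusted p = 0.779), and without cHET 3 it was 0.013. The 2 libraries lowest in Kcnj3, cHET 3 and control 4, were also the 2 lowest in the summed atrial markers, and the 2 highest, control 3 and cHET 2, were the 2 highest there. That sum ran from 1528 to 5263 FPKM in control and from 263 to 5424 FPKM in cHET over 10 genes, with the defining markers Sln and Myl7 at 1.37 and 69.0 FPKM in cHET 3. The part of atrial tissue in the Kcnj3 values was not tested.

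Kcnj5, its partner, stood at 16.9, 11.1, 26.5 and 19.8 FPKM in control 1 to 4 and 18.4, 22.9, 19.7 and 15.8 FPKM in cHET 1 to 4, lowest in control 2 and highest in control 3. Kcnj5 had a log2 fold change of 0.096 (limma, adjusted p = 0.898). In cHET 3, where Kcnj3 was at 1.89 FPKM, Kcnj5 was at 19.7 FPKM, near its mean over all libraries of 18.9 FPKM. Kcnj5 exceeded Kcnj3 by 1.88 to 10.4 times in FPKM, the largest ratio being that of cHET 3. Kcnj1, which lies 28142 bases from Kcnj5 on chromosome 9, was listed at 0 in every library.

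**Figure D4:**
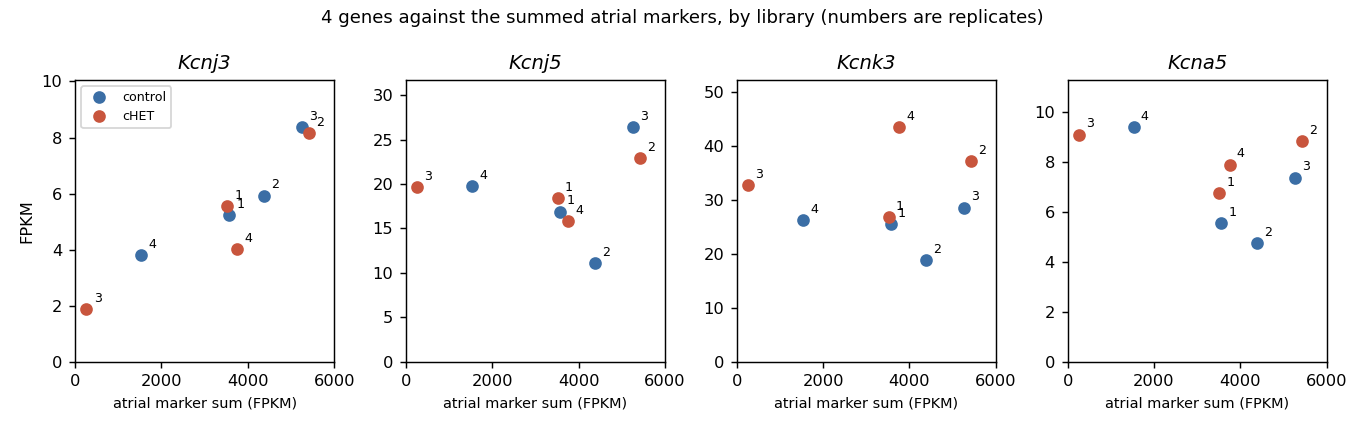
FPKM of Kcnj3, Kcnj5, Kcnk3 and Kcna5 (vertical axes) against the summed FPKM of 10 atrial markers (horizontal axes), 1 point per library with its replicate number, n = 8 libraries. Kcnj3 is lowest, at 1.89 FPKM, in cHET 3, where the atrial sum is 263 FPKM, while Kcnj5, Kcnk3 and Kcna5 are at 19.7, 32.7 and 9.09 FPKM there.

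Both pore genes of the ATP-sensitive channel were among the 9 genes with a mean of at least 10 FPKM. Kcnj11 (ENSMUSG00000096146, chr7:46093953-46100764), its pore subunit in heart muscle, stood at 25.9, 18.9, 28.3 and 29.5 FPKM in control 1 to 4 and 22.7, 26.4, 29.3 and 22.3 FPKM in cHET 1 to 4, lowest in control 2. Its log2 fold change was -0.016 with a 95% interval of -0.35 to 0.32 (limma, adjusted p = 0.977). Kcnj8 (ENSMUSG00000030247, chr6:142564837-142571614), the pore subunit known from vascular smooth muscle and pericytes, stood at 15.3, 11.1, 12.7 and 12 FPKM in control 1 to 4 and 12.9, 12.6, 11.2 and 12 FPKM in cHET 1 to 4. For Kcnj8 the log2 fold change was -0.059 with a 95% interval of -0.29 to 0.17 (limma, adjusted p = 0.854).

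Each pore gene lies beside the gene of a sulfonylurea receptor, the regulatory subunit of the channel. Abcc8, 3758 bases from Kcnj11 on chromosome 7, stood at 14.2, 13.7, 12.7 and 11.7 FPKM in control 1 to 4 and 13.4, 13.8, 10.3 and 13.2 FPKM in cHET 1 to 4 (log2 fold change -0.045, limma, adjusted p = 0.899). Abcc9, 16247 bases from Kcnj8 on chromosome 6, stood at 30.8, 17.4, 30.5 and 37.2 FPKM in control 1 to 4 and 29.4, 24.9, 40.9 and 25.1 FPKM in cHET 1 to 4 (log2 fold change 0.072, limma, adjusted p = 0.928). Levels within the 2 gene pairs were opposite: Kcnj11 exceeded Abcc8 by 1.38 to 2.85 times in FPKM, and Kcnj8 was 0.274 to 0.638 times Abcc9. Control 2 had the lowest values of both Kcnj11 and Abcc9.

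Of the 14 two-pore genes, Kcnk3 and Kcnk6 passed the filter. Kcnk6, a weakly inward rectifying member, stood at 1.81, 2.1, 1.94 and 2.4 FPKM in control 1 to 4 and 2.27, 2.28, 2.15 and 2.4 FPKM in cHET 1 to 4, with a log2 fold change of 0.099 (limma, adjusted p = 0.725), and Kcnk3 exceeded it by 8.96 to 18.2 times in FPKM. Kcnk2, a channel opened by stretch and lipids and known from ventricular muscle, was the highest gene under the filter at a mean of 0.935 FPKM. It stood at 0.612, 0.463, 0.872 and 0.902 FPKM in control 1 to 4 and 1.21, 1.0, 1.2 and 1.22 FPKM in cHET 1 to 4, and its 2 groups did not overlap, with cHET higher. The gene of Kcnk2 overlaps 3 other genes of the table, the highest of which, Pdcd5-ps, had a mean of 100.95 FPKM, and its part in the values of Kcnk2 was not tested. With the filter at 0.5 FPKM its log2 fold change was 0.34 (limma, unadjusted p = 0.0146, adjusted p = 0.457), beside 8.71% of 15026 genes with an unadjusted p under 0.05 there. Kcnk4, a relative of Kcnk2 also opened by stretch, stood at 1.05, 0.758, 0.887 and 0.463 FPKM in control 1 to 4 and 0.955, 0.965, 0.617 and 0.806 FPKM in cHET 1 to 4, and its groups overlapped. Kcnk1 stood at 0.115, 0.637, 0.255 and 0.082 FPKM in control 1 to 4 and 0.183, 0.292, 0 and 0.103 FPKM in cHET 1 to 4, high in control 2 alone and on at most 23 reads.

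The calcium-activated genes were led by the small-conductance subfamily. Kcnn1 stood at 3.17, 2.24, 2.09 and 2.12 FPKM in control 1 to 4 and 2.46, 2.45, 2.58 and 1.74 FPKM in cHET 1 to 4, highest in control 1 and lowest in cHET 4, with a log2 fold change of -0.037 (limma, adjusted p = 0.932). Kcnn2, known from atrial muscle, stood at 1.6, 1.38, 2.2 and 1.85 FPKM in control 1 to 4 and 1.83, 2.27, 2.14 and 2.3 FPKM in cHET 1 to 4, with a log2 fold change of 0.19 and a 95% interval of -0.060 to 0.44 (limma, adjusted p = 0.641). Kcnn3, also expressed in vessels, stood at 0.591, 0.539, 0.364 and 0.882 FPKM in control 1 to 4 and 0.577, 0.576, 0.584 and 0.485 FPKM in cHET 1 to 4, with both extremes in control. Kcnn4, the intermediate-conductance channel of blood and other non-muscle cells, stood at 0.378, 0.424, 0.211 and 0.227 FPKM in control 1 to 4 and 0.137, 0.314, 0.134 and 0.113 FPKM in cHET 1 to 4, highest in control 1 and 2. The summed 11 leukocyte markers were highest in the same libraries, at 128 and 193 FPKM against 64.6 to 99.95 FPKM elsewhere, and their part in the Kcnn4 values was not tested. The large-conductance pore gene Kcnma1 reached 0.0455 FPKM at most, below its smooth muscle accessory subunit Kcnmb1 in every library. Kcnmb1 stood at 0.461, 0.872, 0.439 and 0.437 FPKM in control 1 to 4 and 0.558, 0.658, 0.446 and 0.481 FPKM in cHET 1 to 4, and control 2 held its high value alone. The sodium-activated Kcnt1 reached 0.108 FPKM, and its relative Kcnt2 stood at 0.747, 0.611, 0.616 and 0.505 FPKM in control 1 to 4 and 0.645, 0.669, 0.325 and 0.702 FPKM in cHET 1 to 4, lowest in cHET 3.

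The rest of the family was scarcely detected. Kcnrg, which encodes a regulator of Kcna channels and no channel, stood at 0.388, 0.441, 0.243 and 0.201 FPKM in control 1 to 4 and 0.353, 0.467, 0.239 and 0.41 FPKM in cHET 1 to 4. Kcnu1, a channel of sperm, reached 0.0654 FPKM. Kcnh genes other than Kcnh2 included 6 under 0.1 FPKM and 1 between 0.1 and 1 FPKM. The 5 genes listed at 0 in all libraries were Kcna10, Kcnk16, Kcnj1, Kcnv1 and Kcng3, and 3 reads, the limit that a count of 0 allows, would correspond to 0.0328 to 0.0891 FPKM over these genes and libraries. Across the tested genes, reads per gene and library ran from 18 to 4999, and the median coefficient of variation over the 8 libraries was 18.9%, beside 14.8% for all genes tested.

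Ratios of related subunits do not move with the scaling of a library. Most of the pairs used here join or compete in 1 channel, whereas Kcnh2 and Kcnq1 carry different currents. In all, 7 such ratios were compared between groups (exact permutation test over libraries, two-sided, smallest possible p = 0.0286), and none had an adjusted p below 0.4. Kcnip2 to Kcnd2 was 75.9 ± 45.9 (control) and 44.4 ± 7.09 (cHET) (SD, n = 4; exact permutation test, p = 0.0857, adjusted p = 0.4), with control 1 at 145 far above the rest. Kcnd2 to Kcnd3 was 3.12 ± 2.03 (control) and 4.78 ± 0.935 (cHET) (SD, n = 4; exact permutation test, p = 0.114, adjusted p = 0.4). Kcne1 to Kcnq1 was 6.77 ± 2.29 and 5.24 ± 0.767 (SD, n = 4; exact permutation test, p = 0.286, adjusted p = 0.667). Kcnj3 to Kcnj5 was 0.338 ± 0.142 and 0.252 ± 0.112 (SD, n = 4; exact permutation test, p = 0.429, adjusted p = 0.75). Kcnj2 to Kcnj12, Kcnj8 to Kcnj11 and Kcnh2 to Kcnq1 had log2 differences of 0.079, -0.048 and 0.011, each with an adjusted p of 0.886 in the same exact test. Kcnk1 was at 0 in cHET 3, so its ratio with Kcnk3 was left out.

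Genes that work with these channels were compared as a list of 37 partners outside the Kcn names, of which 29 were tested. Of these, 18 lay above 0 and 11 below, 0 passed the limma test at an adjusted p under 0.05, 1 had an unadjusted p under 0.05, and none had groups without overlap, beside 0.023%, 8.95% and 4.74% of all genes tested. Limma voom on rebuilt reads called 0 of the 29, with 1 at an unadjusted p under 0.05, beside 8.93% of all genes in that fit. Adora1, the adenosine receptor that opens the acetylcholine-activated channel, stood at 2.27, 1.28, 2.83 and 2.62 FPKM in control 1 to 4 and 2.78, 4.14, 3.63 and 3.65 FPKM in cHET 1 to 4, lowest in control 2, and the groups overlapped at 1 cHET library. The difference for Adora1 on the log2 scale was 0.50 (SE 0.168; limma, unadjusted p = 0.0145, adjusted p = 0.441). Chrm2, the muscarinic receptor that opens the same channel, stood at 7.83, 5.99, 9.58 and 6.4 FPKM in control 1 to 4 and 5.83, 9.75, 6.12 and 7.27 FPKM in cHET 1 to 4 (log2 fold change -0.040, limma, adjusted p = 0.946). Akap9, a scaffold of the Kcnq1 and Kcne1 channel, stood at 3.07, 2.14, 3.24 and 3.43 FPKM in control 1 to 4 and 3.3, 2.91, 3.24 and 2.87 FPKM in cHET 1 to 4 (log2 fold change 0.049, limma, adjusted p = 0.899). Genes with the next smallest p values included Fhl2, which binds Kcne1, at -0.27 (limma, adjusted p = 0.595), Rgs4, which ends G-protein signals, at -0.23 (limma, adjusted p = 0.644) and the Z-disc gene Actn2 at 0.22 (limma, adjusted p = 0.679).

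Transcription factors known to set potassium channel genes in heart formed a list of 22, of which 20 were tested. Of these, 14 lay above 0 and 6 below, 0 passed the limma test, and 2 had an unadjusted p under 0.05, a share near the 8.95% of all genes tested, while voom called 0 and gave 1 at that level, beside 8.93% of all genes. Tbx3, a factor of the conduction system, stood at 1.36, 0.907, 2.0 and 1.71 FPKM in control 1 to 4 and 2.31, 2.96, 1.8 and 2.23 FPKM in cHET 1 to 4, with a log2 fold change of 0.43 (SE 0.159; limma, unadjusted p = 0.0244, adjusted p = 0.491). Hand2 was the single gene of this list whose groups did not overlap, beside 4.74% of all genes tested, at 36.2, 34.4, 35.4 and 30.4 FPKM in control 1 to 4 and 38.6, 37.3, 43.3 and 38.7 FPKM in cHET 1 to 4, with a log2 fold change of 0.21 (SE 0.0895; limma, unadjusted p = 0.0466, adjusted p = 0.552). Irx3 and Irx5, which shape the transient outward gradient across the ventricular wall, had log2 fold changes of -0.0028 (limma, adjusted p = 0.996) and 0.14 (limma, adjusted p = 0.857). Irx3 stood at 20.4, 11.1, 18.6 and 19.5 FPKM in control 1 to 4 and 15.5, 13.5, 21 and 18.5 FPKM in cHET 1 to 4. Irx5 stood at 4.71, 2.57, 5.76 and 4.43 FPKM in control 1 to 4 and 4.41, 3.02, 5.44 and 6.8 FPKM in cHET 1 to 4, and control 2 was lowest for both. Etv1, a factor of fast conducting muscle, stood at 1.62, 1.75, 2.33 and 1.36 FPKM in control 1 to 4 and 1.72, 1.97, 1.48 and 1.44 FPKM in cHET 1 to 4 (log2 fold change -0.054, limma, adjusted p = 0.897). Esrrg at 0.29 (limma, adjusted p = 0.628), Nkx2-5 at 0.19 (limma, adjusted p = 0.679) and Irx4 at -0.21 (limma, adjusted p = 0.679) followed in order of p.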

How the data were processed

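The authors deposited 1 FPKM value per gene and library, together with each gene's length. The submitters' processing notes name build mm9 and the tools featureCounts (1.5.0-p3), DESeq2 (1.20.0) and HISAT2 (2.0.5), and give them no roles. The table's gene coordinates equal those of GENCODE M21 (GRCm38) for 98.3% of 54409 shared genes and for 90 of the 94 potassium channel genes, so printed coordinates are GRCm38. FPKM times length gave whole reads, within 0.05 reads, for 100% of the values, and depth is the sum of these rebuilt reads. Whether counting used strand is not given in the sources used here, and 10 of the 24 tested genes overlap a detected gene.

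Genes with a mean of at least 1 FPKM over the 8 libraries (13029) entered the test, which was limma 3.58.1 (R 4.3.3) on log2(FPKM + 1) values (trend and robust, two-sided, no covariate), and p-values were adjusted by Benjamini-Hochberg over all of them (threshold 0.05). On this scale the differences of low genes are understated. Limma p-values set the group difference against the spread between these libraries, moderated over all genes tested. The script was tested on simulated data. Since the unit is FPKM, DESeq2 was not run, and limma voom on rebuilt reads was the alternative for counts. Other alternatives were another pseudocount, filter, scaling or variance model, library weights, a replicate block, a test of protein-coding genes only, and fits that omit each library in turn.

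The potassium channel genes, the gene lists and the rule for named genes were chosen with earlier results of these data known. That rule names the main subunits of cardiac potassium currents by role, with a highest value alone where the mean is under 0.1 FPKM, each tested gene whose groups do not overlap, the 5 with the smallest p per direction, the highest gene of each subfamily, and the 3 genes on either side of the filter. Just above it were Kcnab3, Kcna4 and Kcnj4 at means of 1.61, 1.29 and 1.12 FPKM, and just below Kcnk2, Kcnk4 and Kcnc2 at 0.935, 0.813 and 0.662. Other genes named (Kcna6, Kcnj16 and Kcnj1 as neighbours, genes at 0, overlapping genes) were chosen after their values were seen. A few genes that this rule names are not reported here, though they stay in the counts.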

Additional observations from a re-analysis of the deposited data

Results flagged for a closer look

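Within groups of 4 libraries, 11 single values stood apart by Dixon's criterion. They were found among 74 groups of named potassium channel genes with a mean of at least 0.1 FPKM. Chance alone nominally meets this criterion in about 5% of independent groups. The 74 groups share the same 8 libraries, and the share over all genes tested was not counted. The count of 11 is therefore not read as a trait of these genes. Control 1 held 3 of the 11 values. Kcnip2 stood at 47.0 FPKM there against 31.2 to 32.9 in the other controls. Kcnn1 was at 3.17 FPKM against 2.09 to 2.24, and Kcnd2 at 0.325 against 0.590 to 0.616. Control 2 held 2, Kcnmb1 at 0.872 FPKM against 0.437 to 0.461 and Kcns3 at 0.470 against 0.0772 to 0.102. In cHET 3, Kcnip2 stood at 32.1 FPKM against 25.1 to 26.1 in the other cHET libraries, and Kcnj4 at 2.11 against 1.18 to 1.30. In cHET 2, Kcnk2 was low at 1.00 FPKM against 1.2 to 1.22, and Kcnn4 was high at 0.314 against 0.113 to 0.137. In cHET 4, Kcnn1 was low at 1.74 FPKM against 2.45 to 2.58, and Kcnn3 at 0.485 against 0.576 to 0.584.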

How the results depend on the processing

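No potassium channel gene passed the limma test under any of the 25 alternatives, among 12 to 89 genes tested, and 2 to 9 had an unadjusted p under 0.05. The 9 were of 89 genes tested without a filter, beside 5.99% of 29675 genes there. With the filter at 0.5 and at 0.1 FPKM, 7 of 33 and 7 of 55 genes had such a p, beside 8.71% of 15026 and 8.03% of 20107 genes. Over all genes, the 3 calls became 11 with library weights, 1 with a mean of at least 5 FPKM and 1 with a replicate block; the cause was not tested. Whether the replicate numbers pair the libraries is not settled. Deviations of same-numbered libraries from their group means correlated at 0.29, 0.27, 0.052 and 0.057, against -0.27 to 0.34 for libraries of different numbers. Of the 8 libraries, 5 correlated best with their own number. With the replicate block, 0 of the 24 genes passed and 4 had an unadjusted limma p under 0.05. The share of all genes at that level in this fit was not counted. Kcnk3, Kcnip2, Kcnab3 and Kcnj4 kept their direction in every alternative that tested them. So did Kcne1, Kcne1l, Kcng2, Kcnj2, Kcnk6 and Kcnn2, whose unadjusted limma p was not under 0.05. The alternatives refit the same libraries, so a kept direction is no separate support for a difference. The sign of the differences below, none past the test, did not hold, Kcna5 (0.27) and Kcnj3 (-0.29) among them. With library weights, it turned to -0.095 for Abcc9, -0.11 for Kcnh2, -0.018 for Nkx2-5, 0.0018 for Abcc8, -0.24 for Kcnj5, -0.051 for Akap9, -0.066 for Kcnq1, -0.088 for Irx5, -0.16 for Kcnj12, 0.020 for Kcnn1 and 0.024 for Kcne4. Without control 1 and 2, chosen after seeing the data, it turned to -0.19 for Abcc9, -0.15 for Kcnh2, 0.044 for Abcc8, -0.25 for Kcnj5, -0.090 for Akap9, -0.12 for Kcnq1, -0.038 for Kcna5, -0.076 for Irx5, -0.31 for Kcnj12, 0.086 for Kcnn1, -0.021 for Kcna4 and 0.085 for Kcne4. With TPM, it turned to 0.049 for Abcc8, 0.082 for Kcnj11, 0.094 for Irx3, 0.050 for Chrm2, 0.034 for Kcnj8, 0.011 for Etv1 and 0.040 for Kcnn1. With FPKM rescaled without genes of the mitochondrial genome, it turned to 0.015 for Abcc8, 0.045 for Kcnj11, 0.056 for Irx3, 0.015 for Chrm2 and 0.0089 for Kcnn1. Kcnj12 turned to -0.0044 with TMM, -0.017 with quantile normalization and -0.0093 with voom on rebuilt reads. With 1 library left out in turn, values that changed sign ran from -0.14 to 0.21 for Abcc9, -0.039 to 0.17 for Kcnh2, -0.094 to 0.046 for Abcc8, -0.15 to 0.056 for Kcnj11, -0.11 to 0.28 for Kcnj5, -0.060 to 0.11 for Akap9, -0.071 to 0.13 for Kcnq1, -0.19 to 0.099 for Irx3, -0.18 to 0.075 for Chrm2, -0.12 to 0.024 for Kcnj8, -0.54 to 0.013 for Kcnj3, -0.13 to 0.039 for Etv1, -0.048 to 0.31 for Irx5, -0.15 to 0.19 for Kcnj12, -0.080 to 0.065 for Kcnn1, -0.18 to 0.11 for Kcne4, -0.16 to 0.19 for Kcne3, -0.14 to 0.23 for the ratio of Kcnj2 to Kcnj12, -0.15 to 0.066 for the ratio of Kcnj8 to Kcnj11 and -0.047 to 0.092 for the ratio of Kcnh2 to Kcnq1. DESeq2 was planned for raw counts alone and was not run. Low counts limit Kcnj4, Kcne3 and the untested genes, where 1 library can decide the value.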

Other observations

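The table holds 5 antisense genes named after a potassium channel gene, which are outside the family described here. Kcnq1ot1, the long RNA read against Kcnq1 whose copy from the father silences neighbouring genes, was found in all 8 libraries at 0.155 to 0.243 FPKM. Kcnab3os was at 0 in control 3, control 4 and cHET 4 and at 0.110 to 0.219 FPKM in the others. Kcnmb4os2 reached 0.173 FPKM and Kcnd3os 0.0952 FPKM, and Kcnmb4os1 was listed at 0 in every library.

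Pacemaker channels open on hyperpolarization and are often grouped with potassium channels, and 1 of their genes, Hcn4, showed 1 library apart. Hcn4, the main pacemaker channel, stood at 1.67, 0.89, 2.49 and 1.58 FPKM in control 1 to 4 and 1.32, 6.04, 1.26 and 1.38 FPKM in cHET 1 to 4. Shox2, a factor of the sinus node, was 3.12 FPKM in cHET 2 against 0.188 to 0.842 FPKM in the other 7 libraries. Of the 10 conduction system markers to which both belong, Cntn2, Isl1, Cacna1g and Gja5 were highest in libraries other than cHET 2. Cntn2 was at 1.22 FPKM in cHET 3 and 0.539 FPKM in cHET 2. Hcn2, the ventricular member, stood at 2.66, 3.49, 2.62 and 4.05 FPKM in control 1 to 4 and 2.75, 3.41, 4.27 and 3.5 FPKM in cHET 1 to 4 without such a gap, and its groups overlapped.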
